A study of Arabidopsis thaliana with 12 samples.

Results

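The genes described here are 44 named genes of Arabidopsis thaliana, the thale cress, whose array signal was higher in cold plants than in warm plants on every array. A gene was chosen if its probe was annotated to exactly 1 gene and lay above 0 on all 12 arrays, and if its lowest deposited value on the 6 arrays at 4 °C exceeded its highest value on the 6 arrays at 20 °C. Of 3439 probes on the array, 692 carried 1 gene name and 614 of those were above 0 throughout. The rule was met by 48 of these 614 probes (7.82%), and 4 of the 48 were left out by name (CML30, XERICO, PSBW and MAMI), which leaves the 44. The reverse arrangement, with every array at 4 °C below every array at 20 °C, held for 322 of the 614 (52.4%). The genes were thus selected on the deposited values of this very contrast, so the difference between the temperatures is described here for the 44 without a test.

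All plants were wild type, ecotype Columbia 0, and all were kept in medium light. One group was grown at 20 °C and gave 6 arrays, labelled ML_20C. The other was moved to 4 °C for 24 h, gave 6 arrays, labelled ML_4C, and is called photoinhibitory by the submitters. The labels say nothing of the organ, the age of the plants, the light intensity in physical units, the number of plants per array, or whether the arrays of a group came from separate plants. Of 5 markers of green tissue 4 were measured on a probe with 1 name. The means at 20 °C and 4 °C were 25.7 and 46.1 for the photosystem II subunit PSBW, 13.7 and 7.63 for the antenna protein LHB1B2, 3.52 and 1.27 for the photosystem I subunit PSAN, and 0.765 and 0.524 for the Calvin cycle enzyme PRK. These markers did not move together, since PSBW was called higher, LHB1B2 and PSAN were called lower and PRK was not called (limma, adjusted p = 0.14). Of 3 flower markers 2 were measured and both were called lower, SPL with means of 0.691 and 0.287 and AGL54 with 0.248 and 0.0574. The cold mean of AGL54 lay below 0.0680, the 5th percentile of values above 0. None of 3 root markers was measured on a probe with 1 name. Over all 3378 features in the same fit, 1675 (49.6%) were called lower and 232 (6.87%) higher. The part of these markers' changes in the results below was not tested. RNA came from whole samples, so a larger share of a cell type that expresses a gene and more transcript per cell cannot be told apart.

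Photoinhibition is the loss of photosystem II activity that occurs when light absorption outpaces repair and use of the absorbed energy. Cold slows the enzymes of carbon fixation and of repair more than it slows light capture, so the same light becomes excessive in chilled leaves. Within a day, thale cress also starts cold acclimation, in which transcription factors induce protective proteins, compatible solutes accumulate, and lipids, cell walls and metabolism are adjusted.

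The deposited intensity is a linear value per probe that had been scaled before deposit, with array means between 1.02 and 1.09. The median of an array was 0.536 to 0.569 at 20 °C and 0.276 to 0.315 at 4 °C, so a typical probe was dimmer in the cold relative to the array's own mean. Within a group, arrays 1 and 2, 3 and 4, and 5 and 6 deviated together from the group mean. Over 3107 features, r was 0.92, 0.85 and 0.79 at 20 °C and only 0.29, 0.43 and 0.20 at 4 °C. Arrays of different pairs within a group did not (r = -0.68 to -0.08), but deviations from a shared mean lean negative by construction. Each such pair was therefore counted as 1 sample. Means below are over 3 pairs with their SD (n = 3), and the lowest, median and highest values are over the 6 arrays of a group. Nothing shows whether the pairs were separate plants, so the SD may be technical, and the number of arrays limits the precision.

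The reference annotation gives a symbol other than the locus identifier for only 4 of the 44 genes, AT-HF, CBL, CSLA01 and DI21. The other 40 are known here by their locus identifiers alone. No function is stated for them, apart from the lists of loci below that held AT1G78620 and AT2G31800. By symbol, 2 of the 4 are enzymes of amino acid synthesis, 1 belongs to a family of cell wall polysaccharide synthases, and 1 is named for its induction by drought.

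AT-HF, also called HISN4, is the imidazole glycerol phosphate synthase of histidine synthesis, a plastid pathway that also releases a precursor of purines. Its intensity was 1.02, 1.09 and 1.20 (lowest, median, highest) at 20 °C and 1.84, 2.23 and 3.04 at 4 °C. The means were 1.11 ± 0.0790 and 2.39 ± 0.588, a log2 change of 1.08 ± 0.21 (SE) or 2.12-fold. The dimmest cold array was thus 1.53 times the brightest warm array, and AT-HF had the clearest separation of the 4 genes with a symbol. Arrays 1 and 2 at 4 °C were the highest.

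CBL, cystathionine beta-lyase, makes homocysteine from cystathionine on the way to methionine. It was dim, with 0.0882, 0.194 and 0.240 at 20 °C and 0.257, 0.290 and 0.379 at 4 °C. At 4 °C its 3 pairs were close together, at 0.311, 0.318 and 0.290. The spread lay at 20 °C, where arrays 1 and 2 averaged 0.0972 and the other pairs 0.214 and 0.212. With that warm pair left out, the log2 change of 0.89 ± 0.33 (SE) dropped to 0.52.

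CSLA01 belongs to the cellulose synthase-like A family, whose members build glucomannan, a hemicellulose of the cell wall. It had 0.540, 0.613 and 0.707 at 20 °C and 0.786, 0.925 and 0.984 at 4 °C, with means of 0.624 ± 0.0413 and 0.900 ± 0.0641. The change was 1.44-fold. DI21, drought-induced 21, had the smallest change of the 44, with means of 0.637 ± 0.0364 and 0.753 ± 0.0479, or 1.18-fold. Its ranges of 0.574 to 0.677 and 0.697 to 0.803 were nearly touching. Because most probes were dimmer at 4 °C, DI21 still moved up among the probes of an array, from a median percentile rank of 51.8 to 74.7.

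**Figure D1:**
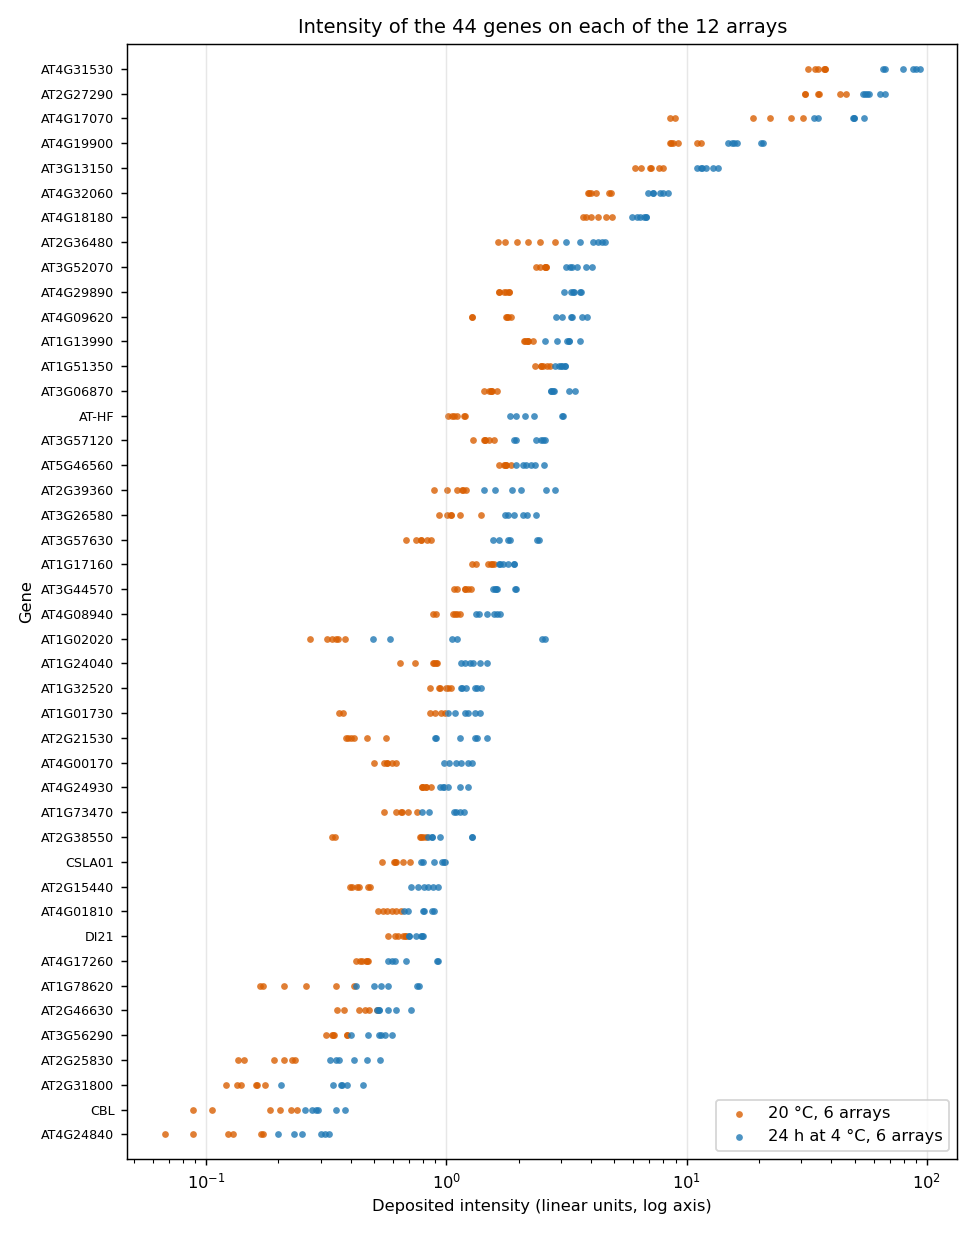
Deposited intensity (linear units on a log axis) of each of the 44 genes on the 6 arrays at 20 °C (orange) and the 6 arrays at 4 °C (blue), 1 point per array, ordered by mean intensity at 4 °C. The orange and blue points of a gene do not overlap, as the rule requires, and the genes span means of 0.270 to 80.5 at 4 °C.

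The 12 genes with the widest gap between the groups, measured as the lowest value at 4 °C over the highest at 20 °C, are AT-HF and 11 known by locus. AT3G57630 came first, with a lowest cold value 1.80 times its highest warm value. Its intensity was 0.677, 0.784 and 0.864 at 20 °C and 1.56, 1.82 and 2.44 at 4 °C, and the log2 change was 1.30 ± 0.19 (SE). The warm arrays were tightly grouped and the cold arrays spread upward, with arrays 1 and 2 the highest.

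AT4G31530, next with a ratio of 1.75, was also the brightest of the 44 genes at 4 °C. It had 32.0, 36.2 and 37.7 at 20 °C and 65.9, 83.1 and 93.3 at 4 °C, with means of 35.7 ± 1.69 and 80.5 ± 12.9. Its 2.24-fold difference, by the log2 change, took it from a percentile rank of 99.8 to 99.9, close to the top of the array in both groups. AT4G29890 followed with 1.65, 1.75 and 1.83 against 3.09, 3.38 and 3.64, and AT3G06870 had 1.44, 1.53 and 1.62 against 2.72, 2.79 and 3.44. Both had small spreads at 20 °C, with SDs of 0.0492 for AT4G29890 and 0.0402 for AT3G06870. At 4 °C the SDs were 0.211 and 0.342. The cold pairs of AT3G06870 stood at 3.35, 2.74 and 2.76, with arrays 1 and 2 the highest.

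AT4G00170 had 0.500, 0.566 and 0.616 at 20 °C and 0.981, 1.12 and 1.28 at 4 °C, a 1.99-fold difference. AT2G21530 was lower at 20 °C, with 0.382, 0.407 and 0.562, and reached 0.893, 1.23 and 1.47 at 4 °C. Its 2.68-fold difference was the second largest of the 44. AT4G09620 had 1.27, 1.77 and 1.85 against 2.85, 3.32 and 3.85, and AT2G15440 had 0.396, 0.428 and 0.480 against 0.715, 0.823 and 0.923. For AT4G09620 and AT2G15440 the highest cold pair was arrays 3 and 4, where it was arrays 1 and 2 for each gene before AT4G09620 in this order.

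AT2G25830 was the dimmest of the 12, with 0.136, 0.201 and 0.234 at 20 °C and 0.327, 0.385 and 0.530 at 4 °C. AT4G32060 had 3.88, 4.09 and 4.84 against 6.91, 7.52 and 8.35, and AT3G13150 had 6.09, 7.07 and 7.98 against 11.1, 11.8 and 13.5. The 12 genes with the widest gap thus covered a wide range of brightness, from 0.191 ± 0.0463 to 35.7 ± 1.69 on average at 20 °C.

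The 6 brightest genes at 4 °C were AT4G31530, AT2G27290, AT4G17070, AT4G19900, AT3G13150 and AT4G32060. AT2G27290 had 31.0, 35.4 and 46.2 at 20 °C and 54.0, 56.7 and 67.1 at 4 °C. AT4G17070 had 8.52, 20.6 and 30.6 against 33.9, 49.5 and 54.7. It was the least even of the bright genes, with warm pairs at 8.71, 20.6 and 28.9, and its log2 change of 1.37 ± 0.47 (SE) dropped to 0.88 once the lowest of these, arrays 1 and 2, was left out. AT4G19900 had 8.50, 8.97 and 11.5 against 14.9, 15.9 and 20.8, with arrays 5 and 6 the highest at 4 °C. The 3 brightest genes held 64.4% of the summed mean intensity of the 44 at 4 °C. All 44 together took 3.93% to 4.48% of the summed intensity of an array at 20 °C and 7.21% to 8.56% at 4 °C. The larger share at 4 °C follows in large part from the rule, since array means were nearly equal.

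AT1G02020 had the largest difference, 3.42-fold, and the most uneven one. Its 6 warm arrays lay between 0.270 and 0.377. The cold pairs stood at 2.53, 1.08 and 0.537, in a mean of 1.38 ± 1.03, so the cold arrays differed among themselves by more than its weakest cold pair differed from the warm arrays. The coefficient of variation over cold pairs was 74.5% for AT1G02020, against a median of 11.5% over the 44 genes and 17.0% over named probes. At 20 °C these medians were 10.1% and 13.2%. The choice of genes without overlap favours small spreads, so these figures describe the 44 and are not a property found apart from the rule.

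The lists of loci were drawn from general knowledge, but with earlier results of these data known. Of these lists 2 held a gene of the 44, and nothing is read from that number. AT1G78620 stood on the list of the phytol and tocopherol pathway, which makes vitamin E and recycles the side chain of chlorophyll. The list had 8 loci, of which AT1G78620 and AT1G74470, geranylgeranyl reductase, were measured on a probe with 1 name. AT1G74470 averaged 2.65 at 20 °C and 2.53 at 4 °C and did not pass the test (limma, adjusted p = 0.70). AT1G78620 had 0.168, 0.235 and 0.414 at 20 °C and 0.419, 0.553 and 0.769 at 4 °C, so that the groups nearly touched. Its means were 0.262 ± 0.108 and 0.591 ± 0.154, and its log2 change of 1.22 amounts to 2.34-fold. AT2G31800 was the only measured locus of 6 on the list of Raf-like and integrin-linked kinase homologues. It had 0.121, 0.150 and 0.176 against 0.205, 0.366 and 0.451, or 2.32-fold, and the lowest cold value was far below the cold median.

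Among the 20 loci of the cold acclimation list and the 13 of the list of carotenoid and xanthophyll protection, none was measured on a probe with 1 name, so the 44 genes cannot be set beside the classic cold-induced genes here. Of the 11 loci of starch and sugar metabolism 1 was measured, ATSPS4F, a sucrose phosphate synthase, with 1.09 ± 0.0618 at 20 °C and 1.07 ± 0.0417 at 4 °C. It did not pass the test (limma, adjusted p = 0.88).

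The remaining genes differed less or were closer to overlap. AT4G24840 was the dimmest of the 44 at 20 °C, at 0.125 ± 0.0466 against 0.270 ± 0.0510 at 4 °C. Its log2 change of 1.17 amounts to a 2.24-fold difference between low values. AT2G39360 had 1.09 ± 0.125 and 2.06 ± 0.602, with cold arrays from 1.44 to 2.82. AT2G36480 had 2.14 ± 0.476 and 4.02 ± 0.570, and AT3G26580 had 1.09 ± 0.150 and 2.01 ± 0.222. These last 3 genes differed between 1.85-fold and 1.90-fold, and the cold values of AT2G39360 were the most spread of the 3.

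A further set lay near 1.5-fold. AT3G57120 had 1.45 ± 0.0544 at 20 °C and 2.30 ± 0.321 at 4 °C. AT1G24040 had 0.829 ± 0.119 and 1.29 ± 0.131, and AT4G17260 had 0.450 ± 0.0189 and 0.714 ± 0.177. AT4G18180 was brighter, at 4.22 ± 0.498 and 6.45 ± 0.230, and was 1 of 8 genes whose warm pairs were more spread than the cold pairs. AT1G73470 had 0.653 ± 0.0701 and 1.02 ± 0.176, AT4G08940 had 1.03 ± 0.123 and 1.51 ± 0.131, and AT3G56290 had 0.350 ± 0.0315 and 0.513 ± 0.0687. AT3G44570 had 1.18 ± 0.0462 and 1.71 ± 0.195. Each of the genes in this set had folds between 1.45 and 1.58, with the lowest cold array 1.03 to 1.26 times the highest warm array.

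A last set differed less. AT1G13990 had 2.18 ± 0.0586 and 3.11 ± 0.351, AT3G52070 had 2.53 ± 0.104 and 3.51 ± 0.370, and AT4G01810 had 0.582 ± 0.0448 and 0.788 ± 0.0789. AT1G32520 had 0.963 ± 0.0668 and 1.26 ± 0.103, AT4G24930 had 0.816 ± 0.0253 and 1.04 ± 0.122, and AT5G46560 had 1.76 ± 0.0521 and 2.21 ± 0.217. AT1G17160 had 1.46 ± 0.138 and 1.78 ± 0.124, and AT1G51350 had 2.52 ± 0.126 and 3.01 ± 0.0706. These folds ran from 1.19 for AT1G51350 to 1.42 for AT1G13990. Over the 44 genes 11 differed at least 2-fold, 19 between 1.5-fold and 2-fold and 14 less, with a median of 1.74-fold.

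At the limit of the rule, the lowest cold value barely exceeded the highest warm value. AT2G46630 had a ratio of 1.004, with 0.512 as its highest warm and 0.515 as its lowest cold value. The next were AT1G78620 at 1.01, AT2G38550 at 1.01 and AT1G01730 at 1.03. In AT2G38550 and AT1G01730, 1 warm pair stood far below the other warm pairs and made the mean difference larger than the gap. The warm pairs of AT2G38550 were 0.339, 0.801 and 0.791, and leaving out the first, arrays 1 and 2, brought its log2 change from 0.73 to 0.32. For AT1G01730 they were 0.968, 0.364 and 0.877, and leaving out the low one, arrays 3 and 4, brought its log2 change from 0.82 to 0.38. Just outside the rule lay THIC at a ratio of 0.991, AT1G35510 at 0.982, AT2G35390 at 0.982 and AT4G27250 at 0.976, whose mean at 4 °C was also above that at 20 °C. The means of THIC, an enzyme of thiamine synthesis, were 0.837 and 1.18.

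In the fit over all probes (limma on pair means, Benjamini-Hochberg adjusted p of 0.05), 34 of the 44 genes were called higher, where the same held for 40 of the 676 named genes that were not at 0 throughout (5.92%) and for 232 of 3378 features (6.87%). Of the 3378 features 1675 (49.6%) were called lower. The same contrast chose the 44, so nothing is read from their count. It dropped to 20 once arrays 5 and 6 at 20 °C were left out, and to 21 with arrays 3 and 4 at 4 °C left out. Higher calls over all features dropped alongside, from 232 to 142 and to 160. The median log2 change was 0.80 over the 44 genes and -0.74 over all features.

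The scaling of the arrays to each other sets how these differences read, because most probes fell relative to the array mean while the brightest did not. Ordered by mean intensity and divided into 10 groups of equal size, the features above 0 throughout had a median log2 change of -0.99 among the dimmest and 0.33 among the brightest, and 71.1% of the brightest had a change above 0. Of the 44 genes 16 were in the brightest group, 9 in the next and none in the dimmest. This mean includes the cold values that the rule required to be high, so a place in the brighter groups is partly built in. By the mean at 20 °C alone, 31 of the 44 lay above the median of named probes above 0 on all arrays and 13 below it. The part of brightness in their difference was not tested. The 3 of them in the second dimmest group, where the median of all features was -0.95, had a median log2 change of 1.17. The rule fixed that their changes lie above 0, so nothing is read from that contrast.

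**Figure D2:**
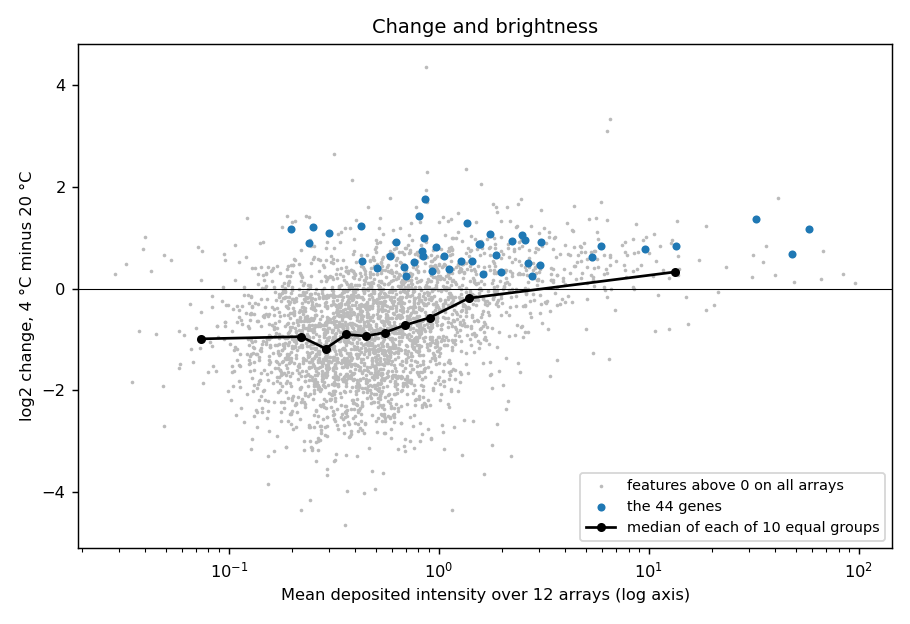
Log2 change (4 °C minus 20 °C, pair means, as deposited) against mean intensity over 12 arrays (log axis) for each feature above 0 on all arrays (grey) and the 44 genes (blue). The black line joins the medians of 10 groups of equal size by brightness, at -0.99 for the dimmest and 0.33 for the brightest, and all 44 genes lie above 0.

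Aligning the array medians moved the median log2 change of the 44 genes to 1.72, with that of all features at 0.17. Quantile normalization, which forces equal distributions, gave 1.07 beside 0.05, and cyclic loess, which removes a trend with brightness, gave 0.93 beside -0.0004. With median centring all 44 genes kept their groups apart, with quantile normalization 37 did and with cyclic loess 36. The wider pool of genes that met the same condition grew at the same time, from 7.82% of named probes to 31.6%, 23.3% and 21.2%. Over all features, median centring turned the 232 higher and 1675 lower calls into 1015 (30.0%) and 638 (18.9%). Quantile normalization gave 658 (19.5%) and 692 (20.5%), and cyclic loess 646 (19.1%) and 703 (20.8%).

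Median centring added the same amount to each of the 44 genes, whereas with quantile normalization and cyclic loess several of the brightest had smaller changes than as deposited and several of the dimmest had larger ones. AT4G31530 went from a log2 change of 1.16 to 0.59 with quantile normalization and 0.44 with cyclic loess. AT2G27290 went from 0.68 to 0.06 and -0.03, the only sign change among the 44. AT4G24840, the dimmest at 20 °C, went from 1.17 to 2.53 and 2.31, and AT2G31800 from 1.21 to 2.39 and 2.31. CBL had 2.05 with quantile normalization, and AT-HF had 1.32 and 1.12. CSLA01 had 1.17 and 1.08, and DI21 had 0.92 and 0.85. The scalings start from the values that the rule used, and 43 of the 44 genes stayed above 0 even with cyclic loess. Nothing is therefore read from the sign of a single gene.

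**Figure D3:**
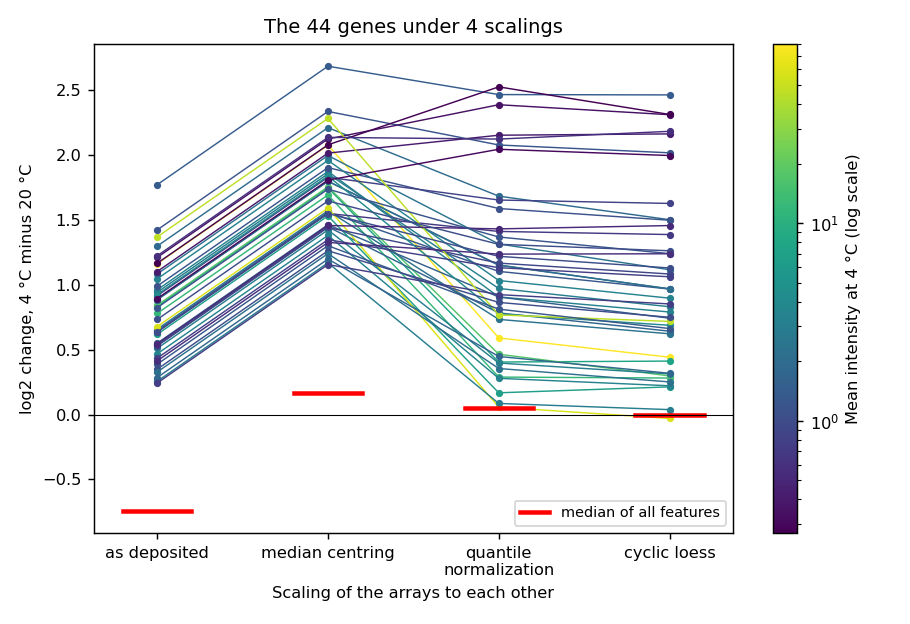
Log2 change (4 °C minus 20 °C, pair means) of each of the 44 genes under 4 scalings of the arrays, 1 line per gene, coloured by mean intensity at 4 °C (log scale), with the median of all features as a red bar. The brightest genes fall towards 0 with quantile normalization and cyclic loess, and some of the dim genes rise above 2.

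A rank within an array does not change when all values of that array are multiplied by 1 factor. The median percentile rank of the 44 genes, among probes above 0 on all arrays, was 72.9 at 20 °C and 88.5 at 4 °C. The ranks come from the values that the rule used, and most probes were dimmer at 4 °C. Higher ranks of the 44 thus follow in large part from the rule, and nothing is read from their count. For 37 of the 44 the rank was higher on every cold array than on every warm array, where 138 of the 614 named probes (22.5%) showed this. The 7 others were AT3G13150, AT4G19900, AT4G18180, AT2G27290, AT2G36480, AT4G17070 and AT1G51350. They already stood between ranks 91.2 and 99.8 at 20 °C, and the same 7 overlapped after quantile normalization. The largest moves were in dim genes. AT1G78620 went from rank 10.7 to 67.4, AT1G02020 from 23.6 to 83.1, AT2G21530 from 29.0 to 84.8 and AT2G25830 from 7.40 to 55.6. At 20 °C 13 of the 44 ranked below 50, and at 4 °C only AT4G24840 at 41.2 and CBL at 46.6 did.

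**Figure D4:**
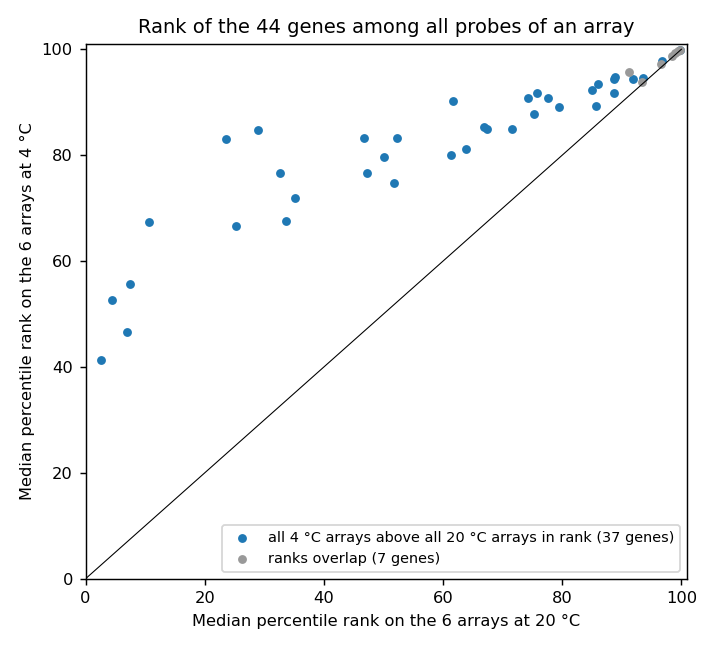
Median percentile rank (%) of each of the 44 genes among the probes above 0 on all arrays, at 20 °C (horizontal) and at 4 °C (vertical), with the line of equal rank. Blue points are the 37 genes whose rank was higher on every cold array, and the 7 grey points, whose ranks overlap, sit at the top right above rank 91.2.

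The cold pairs were not equally often the highest or the lowest, among the 44 genes and also among all named probes. Whether the 44 differed from the named probes in this was not tested. Arrays 1 and 2 were the highest cold pair for 21 of the 44 genes, arrays 3 and 4 for 13 and arrays 5 and 6 for 10, beside 40.7%, 39.3% and 20.0% of the 614 named probes. Arrays 5 and 6 were the lowest cold pair for 25 of the 44, beside 45.4% of named probes. At 20 °C arrays 1 and 2 were the highest for 18 of the 44, arrays 3 and 4 for 18 and arrays 5 and 6 for 8, beside 31.9%, 50% and 18.1% of named probes.

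The rule used no information on where a gene lies. By locus identifier 9 of the 44 genes were on each of chromosomes 1, 2 and 3, 16 on chromosome 4 and 1, AT5G46560, on chromosome 5. In percent, chromosome 4 held 36.4% of the 44 and 18.5% of the 612 named probes above 0 on all arrays that matched a reference locus. Chromosome 5 held 2.27% and 19.6%. The shares for chromosomes 1, 2 and 3 were 20.5% each, beside 23.9%, 19.1% and 19.0%. Of the 4 genes left out by name, CML30, XERICO and PSBW lie on chromosome 2 and MAMI on chromosome 5. These shares are a description of the genes on this array and were not tested.

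**Figure D5:**
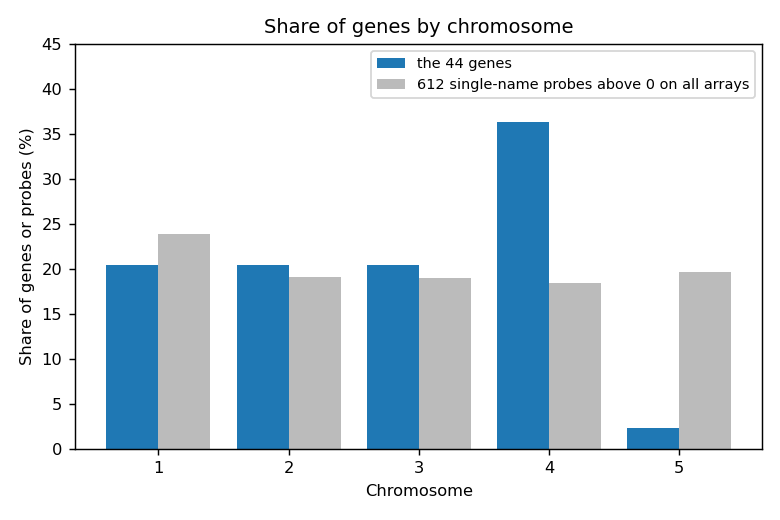
Share (%) of the 44 genes (blue) and of the 612 named probes above 0 on all arrays with a reference locus (grey) on each of the 5 chromosomes. Chromosome 4 holds 36.4% of the 44 genes beside 18.5% of the named probes, and chromosome 5 holds 2.27% beside 19.6%.

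None of the 44 genes was the direct neighbour of another in the reference annotation. The closest were AT4G24840 and AT4G24930, with 6 protein-coding genes between them, and CBL and AT3G57120, with 8. AT4G17070 and AT4G17260 had 19 between them. The annotated gene length had a median of 2233 bp in the 44 and 2146 bp over the named probes, and 63.6% and 61.1% had a single annotated transcript.

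The same rule was met by 84 of 786 probes with several gene names (10.7%) and by 157 of 1708 with no name here (9.19%), against 7.82% of those with 1 name. Over all 3108 probes above 0 on all arrays the share was 9.30%.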

How the data were processed

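Total RNA was measured on 12 arrays. The deposited table holds 1 linear intensity per probe and array, and per the labels no scanner, background correction or scaling is given. It had been scaled before deposit, with no value over 100. Probes were named from the platform annotation, matched through gene identifiers to RefSeq assembly TAIR10.1 (690 of 692 single-name probes). A gene with 2 probes was averaged, giving 3438 features. Before log2, a 0 was replaced by the array's smallest positive value. Arrays 1-2, 3-4 and 5-6 were averaged within a group and compared with limma 3.58.1 in R 4.3.3 (lmFit and eBayes, two-sided, Benjamini-Hochberg over all features, threshold 0.05), 4 °C minus 20 °C. Calls were counted over the 3378 features above 0 on at least 1 array. Folds are the antilog of the log2 change. The script was tested on simulated data.

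The genes and lists were chosen with earlier results of these data known. Each of the 44 genes is named. Those with array values shown are the 12 with the widest gap, the 6 brightest and members of the lists, with genes at the rule's limit. Genes with a symbol or with the largest difference were chosen after their values were seen. Same-numbered pairs of the 2 groups did not vary together (r of -0.30, -0.01 and 0.12), so numbers were not used to pair samples. Alternatives were other scalings, an offset, single arrays, a replicate block, a trended variance, a filter on dim probes, a minimum fold and leaving out each pair. Promoter and protein sequences were not analysed here.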

Additional observations from a re-analysis of the deposited data

How the results depend on the processing

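The number of genes that met the rule was 44 as deposited and 189 after median centring, 140 after quantile normalization and 127 after cyclic loess. It was 46 to 60 when a pair of arrays was left out. Fewer arrays can only keep or raise this number, so leaving out a pair could not show a loss of genes. Of the 44, the number called higher by limma was 34, or 11 with a minimum fold of 2, and 20 to 29 with a pair left out. Over all features 232 were called higher and 1675 lower as deposited. The higher and lower calls were 1015 and 638 with median centring, 658 and 692 with quantile normalization, and 646 and 703 with cyclic loess. With 12 single arrays 420 were higher, with the replicate block on single arrays 424, with a minimum fold of 2 72, and with a pair left out 142 to 211. The replicate block on pair means gave 207 higher and 1602 lower, with 26 of the 44 genes called. Same-numbered samples share only a number. The median log2 change of the 44 was 0.80, and 1.72, 1.07 and 0.93 under the 3 scalings and 0.72 with an offset of 0.0680. AT2G27290 went from 0.68 to -0.0302 with cyclic loess. The scalings differ in which part of the fall in dim probes they remove, and the cause was not tested. No other gene of the 44 changed sign under the alternatives run. Planned promoter motif shares were not run. Dim genes near 0 are the least precise.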
